A study of Homo sapiens with 8 samples.

Results

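Sites bound by HA-tagged RUNX1-4D were compared with sites bound by HA-tagged RUNX1-4A in HEL cells, a human erythroleukemia line, from 4 of the 8 CUT&RUN libraries of the study, 2 per line. CUT&RUN cuts and releases the DNA next to an antibody-bound protein in permeabilized cells. Peaks were taken on chromosomes 1 to 22 and X. Within each replicate number the longer list was cut to the length of the shorter by the −log10 of the q-value, and peaks that overlapped by at least 1 bp were merged. This gave 26637 regions. Each region is described by the lists in which it was called and by its percentile rank in each list, where 100 is the strongest peak.

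All lines were HEL cells transduced with a construct and held in puromycin at 2 µg/ml. They carried RUNX1-4D, RUNX1-4A, wild-type RUNX1 (WT), all with the HA tag, or an empty vector. In mutant names of this form, 4D usually stands for aspartate at phosphorylation sites, which resembles a phosphate in charge, and 4A for alanine, which cannot take up a phosphate. The residues, the promoter of the construct and the amount of tagged protein per line are not given in the sources used here, so a difference in binding and a difference in the amount of tagged protein cannot be told apart. Each sample had 500000 cells, permeabilized in 0.01% digitonin, and 12 PCR cycles. The anti-HA antibody reads the tagged protein alone, and the endogenous RUNX1 of HEL cells was not measured. Peaks were called over the empty vector line, so the 4D and 4A lists may share control libraries. The study names 2 biological replicates per line and does not say whether they came from separate transductions. The lists hold no RNA values, so the cell type could not be checked against marker expression.

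RUNX1 is the DNA-binding subunit of core binding factor. It recognizes TGTGGT, and its partner CBFB strengthens its hold on DNA without touching the DNA itself. In blood it is needed for stem cells to arise and, later, for megakaryocytes to mature and release platelets. The title of the series places its phosphorylation in the choice between the megakaryocytic and the erythroid fate, and the comparison of 4D with 4A asks whether the phosphate-like form and the form without phosphate sit at different sites.

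The sequences below show promoters that lay under regions differing between the lines, with and without the RUNX motif. They are the strand of the gene, 5′ to 3′, from RefSeq on GRCh38.p14. TGTGGT or its reverse complement ACCACA is in capitals. The first 4 hold the 250 bases before a gene start, and the others hold 30 bases around a motif. FAM151B was the 1 promoter with the motif among those under regions called in both 4D lists and neither 4A list (chr5:80487850-80488099, + strand). ALAD, an enzyme of heme synthesis, lay under a region ranked higher in 4D (chr9:113401285-113401534, − strand). CDKN3, a phosphatase that acts on cyclin-dependent kinases, lay under a region called in both 4A lists and neither 4D list (chr14:54396757-54397006, + strand). ZNRF2, a ubiquitin ligase, lay under a region ranked lower in 4D (chr7:30284347-30284596, + strand).
FAM151B: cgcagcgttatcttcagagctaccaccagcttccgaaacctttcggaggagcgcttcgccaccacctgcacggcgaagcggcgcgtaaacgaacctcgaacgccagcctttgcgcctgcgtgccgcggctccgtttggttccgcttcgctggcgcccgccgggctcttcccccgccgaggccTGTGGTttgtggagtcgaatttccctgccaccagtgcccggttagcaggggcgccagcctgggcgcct
ALAD: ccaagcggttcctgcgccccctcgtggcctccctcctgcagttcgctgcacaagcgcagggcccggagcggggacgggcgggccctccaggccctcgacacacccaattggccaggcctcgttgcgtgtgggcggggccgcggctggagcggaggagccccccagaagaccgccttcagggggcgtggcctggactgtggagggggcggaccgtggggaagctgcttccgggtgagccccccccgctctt
CDKN3: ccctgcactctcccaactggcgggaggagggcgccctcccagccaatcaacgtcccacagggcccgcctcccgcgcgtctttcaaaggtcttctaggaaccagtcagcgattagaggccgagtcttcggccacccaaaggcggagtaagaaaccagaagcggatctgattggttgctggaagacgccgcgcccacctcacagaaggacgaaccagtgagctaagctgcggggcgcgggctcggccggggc
ZNRF2: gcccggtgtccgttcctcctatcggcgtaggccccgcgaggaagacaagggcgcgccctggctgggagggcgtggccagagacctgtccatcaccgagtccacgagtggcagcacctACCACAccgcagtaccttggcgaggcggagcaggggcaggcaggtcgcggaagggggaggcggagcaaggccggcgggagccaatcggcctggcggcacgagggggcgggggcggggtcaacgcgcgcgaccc
RPS6KA2, ranked higher in 4D (chr6:166627472-166627501, − strand): ggaACCACAgggcggcgctgatgattggag
PSMD13, called in 4A (chr11:236749-236778, + strand): acaaaggctgacACCACAaagctagtccgt
PSMD13, called in 4A (chr11:236777-236806, + strand): gtagcgggttcgACCACAggcgcccacact
S100A5, ranked lower in 4D (chr1:153541130-153541159, − strand): cttgccttcaacTGTGGTcccagctgagtc
S100A5, ranked lower in 4D (chr1:153541084-153541113, − strand): ggctgaggttttTGTGGTgggagaggaatg

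At FAM151B the motif began 68 bases before the start, and the peak summits lay 57 and 56 bp from it in 4D replicates 1 and 2. The region had −log10 q of 4.68 and 6.53 in 4D and no peak in either 4A list. At RPS6KA2, a kinase of the MAP kinase pathway, the motif lay 2 and 32 bp from the 4D summits and 22 and 14 bp from the 4A summits. At ZNRF2 it lay 75 and 73 bp from the 4D summits and 2 and 195 bp from the 4A summits. The ZNRF2 region had −log10 q of 5.86 and 12.7 in 4D, against 13.5 and 44.3 in 4A. The S100A5 region had 9.66 and 11.2 in 4D, against 30.5 and 35.0 in 4A. In both, each 4D value was lower than the 4A value of its number, and both regions were chosen for a lower rank in 4D. The region over PSMD13, a proteasome subunit, and its neighbour SIRT3 was not called in 4D and had −log10 q of 6.72 and 4.29 in 4A. The CDKN3 region was not called in 4D and had 6.97 and 12.9 in 4A, and the letters TGTGGT were not in this window.

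Few promoters lay under the differing regions, and few of these held the motif. Windows of 300 bases, from 250 before to 50 after a gene start, held TGTGGT or ACCACA in 2496 of 22132 cases, or 11.3%. Under regions of both 4D lists and neither 4A list, 1 of 26 windows held it, against 1 of 10 under regions of both 4A lists and neither 4D list. Under regions ranked higher in 4D it was 2 of 11, under those ranked lower 2 of 10, and under regions called in all 4 lists 224 of 1663, or 13.5%. A match is a description of the letters and not a measured site. Summits away from promoters were not searched, since no genome sequence was used here.

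The lists differed more in length between replicate numbers than between lines. Before the cut, 4D had 5346 peaks in replicate 1 and 21076 in replicate 2, and 4A had 6256 and 24203, on chromosomes 1 to 22 and X. The 4A lists were therefore cut by 910 and 3127 peaks, or 14.5 and 12.9%. The weakest peak kept had a −log10 q of 1.31 and 1.31 in 4D and of 3.52 and 3.12 in 4A. After the cut the median −log10 q was 7.60 and 10.2 in 4D and 10.3 and 11.8 in 4A, and the median peak width was 252 and 335 bp in 4D and 304 and 371 bp in 4A. The 4D medians were the lower ones in both numbers. The read depth of the libraries is unknown, because peak lists give no totals of reads, and a region without a call was not called at the depth of that library.

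Most sites were common to the lines. Of the 5208 regions of 4D replicate 1, 3381 were called in 4A replicate 1, which is 64.9% of the 4D regions and 64.3% of the 5262 regions of 4A. In replicate 2, 15421 regions were shared, 74.3% of the 4D regions and 73.7% of the 4A regions. The longer replicate 2 list of the other line held nearly all of a replicate 1 list. It was 93.3% for 4D replicate 1 in 4A replicate 2 and 93.2% for 4A replicate 1 in 4D replicate 2, beside 95.1% and 93.9% within 4D and within 4A. In all, 10731 regions were called in 1 list, 9606 in 2, 2983 in 3 and 3317 (12.5%) in all 4. Regions called in both replicate 2 lists and no replicate 1 list numbered 9174, so only the 7089 regions in a replicate 1 list could separate the lines in both numbers.

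Regions called in both 4D lists and neither 4A list numbered 141 (0.529% of all regions), and those called in both 4A lists and neither 4D list numbered 134 (0.503%). Without chromosomes 10 and 14, where the replicate 1 lists were uneven, they were 132 (0.533%) and 123 (0.497%) of 24762 regions, beside 3134 in all 4 lists (12.7%). The counts of the lines were near each other in both cases. With full lists they were 106 and 223, and with all 4 lists at one length 211 and 209, of which 28 and 10 were among the 141 and 134. The smallest p that an exact permutation of 2 lists against 2 can give is 0.333, or 0.5 within replicate numbers, so no region was tested between the lines.

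Among the regions found with 4D and not 4A, those at regulators of blood cells were inside FLI1 and ZFPM1. FLI1 is an ETS family transcription factor of megakaryocytes, and ZFPM1 encodes the cofactor through which GATA1 acts in erythroid cells and megakaryocytes. The FLI1 region (chromosome 11, 128766655 to 128766869) had −log10 q of 7.60 and 40.2 in 4D replicates 1 and 2. Neither 4A list held it, and the nearest 4A peak lay 9.94 kb away. WT replicate 2 called it with 23.4, and WT replicate 1 did not. The ZFPM1 region (chromosome 16, 88477843 to 88478550) had −log10 q of 5.21 and 24.2 in 4D, no call in 4A, and 17.7 in WT replicate 2 alone. Its nearest 4A peak lay 3.63 kb away. Another region of this kind near a listed gene lay inside FGF17, close to DMTN, and was weak in 4D, with −log10 q of 1.57 and 4.63. Below the cut a 4A peak overlapped it.

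By rank, the leading region of the 4D lists lay inside NRG2, a ligand of the ERBB receptors (chromosome 5, 139877845 to 139878298). It had −log10 q of 21.3 and 49.7 in 4D, no call in 4A with the nearest peak 15.5 kb away, and 7.94 and 22.7 in WT. Its 4D percentile ranks were 88.7 and 91.9. A region 37.7 kb from PLXNA1, which encodes a plexin, had 11.3 and 28.2 in 4D and the nearest 4A peak lay 60.8 kb away. Further regions lay 2.23 kb from IQSEC3, an exchange factor for ARF GTPases, with 10.7 and 29.4 in 4D, and 21.7 kb from MVB12B, a part of the ESCRT sorting machinery, with 8.38 and 37.1 in 4D. A region inside NFATC4, a transcription factor switched on by calcineurin, had 12.4 and 14.1 in 4D, and one inside CDC42EP3, an effector of the GTPase CDC42, had 15.2 and 11.1. The others named by rank lay 16.8 kb from MAS1, 137 kb from UNC5D, a netrin receptor, 22.1 kb from DYM and inside SSPN. The SSPN and DYM regions overlapped 4A peaks that the cut had removed. These 10 regions were classed by the nearest protein-coding gene, and the gene table gives no exons, so exon and intron cannot be told apart. ARNT2, a partner of bHLH-PAS transcription factors, held 3 regions found with 4D and not 4A, named after their values were seen. Their −log10 q in 4D was 6.62 and 29.3, 5.79 and 21.5, and 3.63 and 4.24.

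Among the regions found with 4A and not 4D, those at listed genes lay inside GRB2, SELP and STAT4 and near EPB42. GRB2 is the adaptor that links growth factor receptors to RAS. Its region (chromosome 17, 75338593 to 75339052) was not called in 4D, had −log10 q of 10.1 and 34.9 in 4A, and 29.6 in WT replicate 2 alone. SELP encodes P-selectin of platelet granules. Its region (chromosome 1, 169604733 to 169605077) was not called in 4D and had 8.46 and 18.1 in 4A and 8.55 and 4.58 in WT. The region in STAT4, a transcription factor downstream of interleukin receptors, had 4.18 and 7.74 in 4A and lay 1.38 kb from a 4D peak. The region nearest TGM5 and close to EPB42, which anchors the red cell skeleton, had 11.4 and 4.36 in 4A. The nearest 4D peak lay 10.1 kb away.

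By rank, the leading region of the 4A lists lay inside CAST, which encodes calpastatin, the inhibitor of calpain proteases (chromosome 5, 96657029 to 96657478). It was not called in 4D, where the nearest peak lay 45.2 kb away, and had −log10 q of 27.0 and 38.0 in 4A and 20.9 in WT replicate 2 alone. The region inside IFNAR2, a subunit of the interferon receptor (chromosome 21, 33259945 to 33260273), had 19.2 and 38.6 in 4A, and the nearest 4D peak lay 43.8 kb away. The region 17.2 kb from ZFPM2, a relative of ZFPM1 that also binds GATA factors, had 14.3 and 62.1 in 4A, and the nearest 4D peak lay 138 kb away. Inside KIAA1549 the values were 13.5 and 28.9 in 4A, and inside ZDHHC14, a palmitoyltransferase, 29.6 and 13.99. FOCAD, CCDC15, PCNX1 and CACHD1 were nearest to others named by rank.

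**Figure D1:**
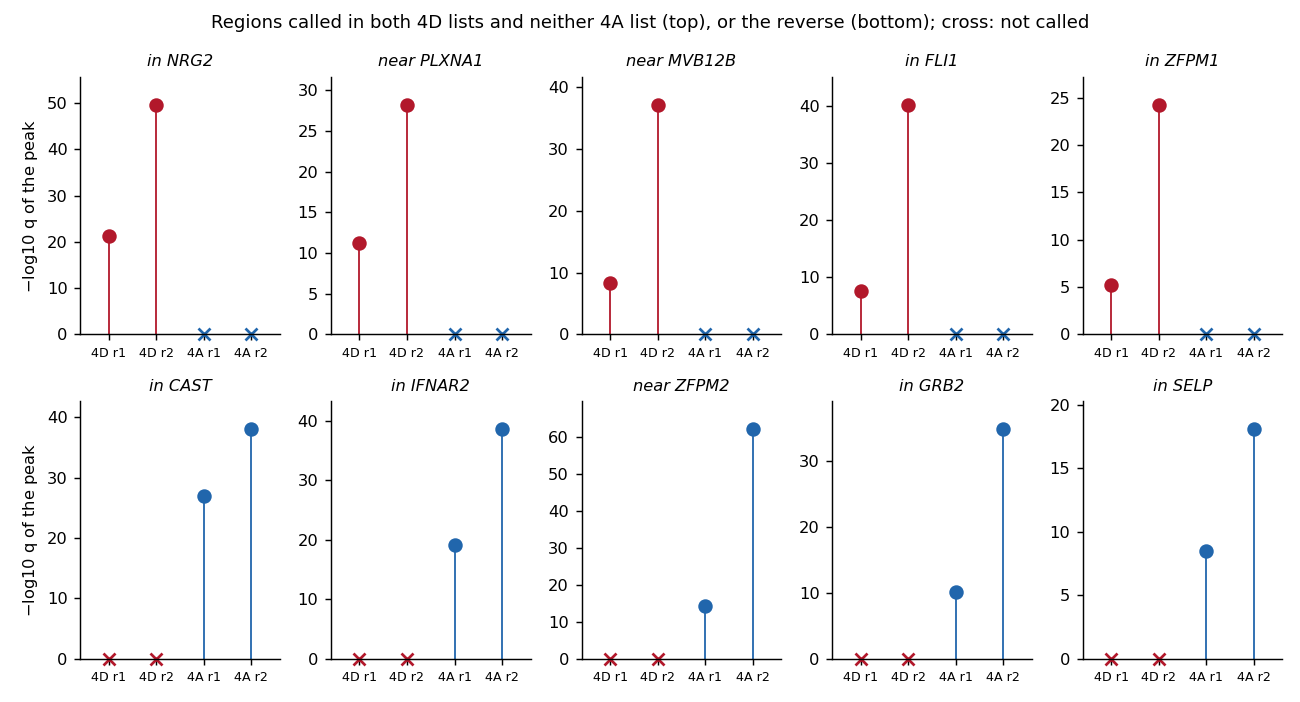
The −log10 of the authors' q-value (vertical axis, own scale in each panel) in 4D replicates 1 and 2 (r1, r2) and 4A replicates 1 and 2 for 5 regions found with 4D and not 4A (top) and 5 found with 4A and not 4D (bottom). A cross marks a list without a call, as in both 4A lists at FLI1, where 4D had 7.60 and 40.2.

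Regions found with 1 line only ranked below the middle of their lists by the median. The median percentile rank was 26.3 in replicate 1 and 45.7 in replicate 2 for the 4D regions, and 27.2 and 38.7 for the 4A regions. The lower of the 2 percentile ranks had a median of 21.3 in the 4D regions and 20.5 in the 4A regions, and exceeded 50 in 13 and 12 of them. A −log10 q of at least 10 in both calling lists was reached by 6 of the 141 regions of 4D and 19 of the 134 regions of 4A. Of the 141, 35 overlapped a 4A peak below the cut, 11 in replicate 1 and 30 in replicate 2, and 106 overlapped none. Of the 134, none overlapped a peak of the full 4D lists, from which nothing had been cut. The nearest peak of the other line in its full lists lay at a median of 11.5 kb for the 4D regions and 34.8 kb for the 4A regions. The first median includes the 35 regions that overlapped a 4A peak, and the full 4A lists were longer, so the medians are not on a like base.

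Gene ends held a smaller share of them than of all regions. Strongest summits within 1 kb of an end of a protein-coding gene made up 15.6% of regions found with 4D and not 4A (Wilson 95% interval 10.5 to 22.5) and 8.96% of those found with 4A and not 4D (5.20 to 15.0), against 27.6% of all 26637 regions (27.1 to 28.1) and 40.0% of those called in all 4 lists (38.4 to 41.7). Inside genes but away from their ends lay 49.6% of the 4D regions and 52.2% of the 4A regions, against 40.3% of all regions and 35.3% of the common ones. Between genes lay 34.8% of the 4D regions (27.4 to 42.9) and 38.8% of the 4A regions (31.0 to 47.3), against 32.1% of all regions, which lies inside both intervals, and 24.7% of the common ones. The intervals of the regions of 1 line overlapped each other in each class. These intervals cover counting error only. As whole lists the lines were close, with 36.7 and 29.6% of peaks at gene ends in 4D and 34.5 and 30.3% in 4A.

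**Figure D2:**
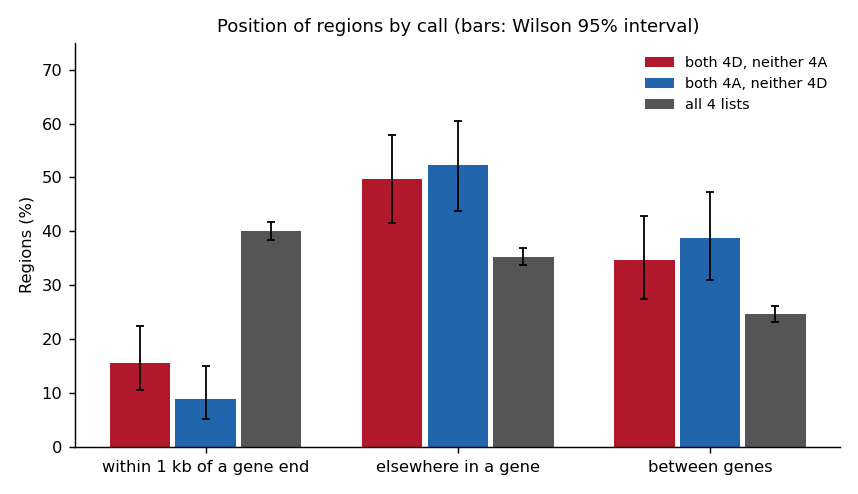
Percent of regions (vertical axis) by position for regions called in both 4D lists and neither 4A list, in both 4A lists and neither 4D list, and in all 4 lists, with Wilson 95% intervals. Gene ends held 15.6% and 8.96% of the regions of 1 line and 40.0% of the common regions, and 27.6% of all regions, which are not drawn.

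The WT lists, cut to the same lengths, called both kinds about as often as all regions in replicate 2. In replicate 1 they called the 4A regions less often. WT replicate 1 called 21 of the regions found with 4D and not 4A (14.9%) and 11 of those found with 4A and not 4D (8.21%). WT replicate 2 called 102 (72.3%) and 94 (70.1%). Of all regions they called 19.6 and 70.8%, and of the regions in all 4 lists 89.1 and 99.6%. The 19.6% lies inside the interval of the 4D regions. All regions are an unlike base in replicate 1, since only 7089 of 26637 were in a replicate 1 list, as each region of 1 line is.

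In the 3317 regions called in all 4 lists, the rank of a region could be compared in both numbers. The shift is the percentile rank in 4D minus that in 4A. It had a median of 0.42 points in replicate 1 and −0.43 in replicate 2, with SDs over regions of 25.02 and 12.2. In replicate 1, 664 regions were at least 20 points higher in 4D and 601 at least 20 lower. In replicate 2 there were 164 and 166. The shifts of a region in the 2 numbers had the same sign in 50.7% of regions (768 higher in 4D in both, 915 lower in both, 1634 opposite). Across the regions the shifts had a Spearman correlation of 0.0165 and a Pearson correlation of 0.0281, given as a description over regions that share libraries. Without chromosomes 10 and 14 the same sign was found in 50.7% of 3134 regions.

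Regions at least 20 points higher in 4D in both numbers numbered 32 (0.965% of those in all 4 lists), and those at least 20 points lower numbered 43 (1.3%). Without chromosomes 10 and 14 they numbered 32 (1.02%) and 42 (1.34%). On all chromosomes, 664 regions passed upward in replicate 1 and 164 in replicate 2, and 601 and 166 passed downward. The shifts in replicates 1 and 2 were nearly unrelated (Spearman correlation 0.0165), so some regions would pass in both without a repeatable difference. Whether the 32 and 43 exceed the number expected from unrelated shifts was not tested. With full lists 20 and 74 regions passed, and with all 4 lists at one length, where the lines had to be apart without overlap and by 20 points on average, 110 and 151, of which 2 and 0 were among the 32 and 43. The weakest members and the nearest others differed little. The region near GRIK4, with shifts of 22.2 and 20.1, was just inside, and that near ZMAT3, with 26.8 and 19.9, just outside. On the other side, the region near TTK, with −50.4 and −20.2, was just inside, and that near RAB11FIP5, with −19.9 and −23.5, just outside.

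Of the 10 regions near erythroid genes in all 4 lists, 3 were higher in 4D in both numbers, 3 lower in both and 4 opposite. Those at least 20 points higher in both were at ALAD and DMTN, and none was at least 20 points lower in both. Neither the ALAD nor the DMTN region passed with full lists or with all lists at one length. The ALAD region was also lost with a −log10 q of at least 5. The ALAD region (chromosome 9, 113401069 to 113401544) covered the promoter printed above. It had −log10 q of 8.76 and 29.9 in 4D, against 5.85 and 16.3 in 4A, with shifts of 34.0 and 21.5. The region in DMTN, a protein of the red cell membrane skeleton (chromosome 8, 22076805 to 22077517), had 14.1 and 62.1 in 4D, against 11.6 and 23.7 in 4A, with shifts of 20.6 and 20.8. For both genes each 4D value was above the 4A value of its number, while the 4D value of replicate 1 was below the 4A value of replicate 2. Among the erythroid regions lower in 4D in both numbers, a second ALAD region had shifts of −2.62 and −3.24. EPB41, which ties the red cell skeleton to the membrane, had −3.42 and −15.3, and RHD, a blood group protein, −34.8 and −0.98. The region at FTL, the light chain of the iron store ferritin, named after its values were seen, had 8.61 and 21.4 in 4D, against 5.70 and 12.4 in 4A.

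The largest shift up in both numbers lay 107 kb from NFIB, a transcription factor of the nuclear factor I family (chromosome 9, 13974810 to 13975265). The 4D lists gave it a −log10 q of 27.4 and 48.3, against 4.76 and 7.11 in 4A, and 7.67 and 30.8 in WT. Both 4D values exceeded both 4A values. Its fold enrichment over background, as the authors gave it, was 10.7 and 7.17 in 4D, against 3.64 and 2.78 in 4A. The NFIB region did not pass when lists were cut and ranked by fold enrichment. It was also lost with a −log10 q of at least 5 and with all lists at one length. The region 45.7 kb from NKD1, an inhibitor of Wnt signalling, had −log10 q of 11.0 and 16.9 in 4D, against 4.69 and 3.99 in 4A. That in VPS16, a tether of late endosomes, had 11.4 and 17.9 in 4D, against 4.54 and 6.59 in 4A. These groups did not overlap. Neither did those in NFKBID, a nuclear inhibitor of NF-κB that lies close to the myeloid gene TYROBP. They were 10.5 and 14.3 in 4D, against 5.76 and 4.44 in 4A. All regions named here were chosen by shifts in the rank of these values, so such a separation follows in part from the choice. Its share among all common regions was not counted. The region near RTF1, a factor of transcript elongation, had 6.40 and 27.2 in 4D, against 4.81 and 12.1 in 4A. Other regions named by rank of shift were nearest to FBXO11, SLC39A10, RPS6KA2 and TFF2, with smaller shifts between 30.2 and 38.6 points. The FBXO11 region lay 77.8 kb from its gene and the SLC39A10 region 1407 kb.

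Among the regions ranked lower in 4D, that inside PAG1, a membrane adaptor that recruits the kinase CSK, had the farthest shift in replicate 2 (chromosome 8, 81093552 to 81094231). The 4D lists gave it a −log10 q of 7.43 and 6.94, against 28.5 and 59.0 in 4A, and 16.8 and 46.9 in WT. The region 41.8 kb from RRM2, a subunit of ribonucleotide reductase (chromosome 2, 10252594 to 10252869), had 2.23 and 3.89 in 4D, against 16.0 and 16.2 in 4A, and 5.62 and 11.0 in WT. Its shifts were −65.0 and −44.5. At both, every 4D value was below every 4A value. A region 0.439 kb from ATN1 and close to PTPN6, a phosphatase that restrains cytokine receptors, had 5.79 and 8.69 in 4D, against 15.5 and 49.9 in 4A. The region 19.7 kb from FASLG, the ligand of the death receptor FAS, had 4.95 and 6.78 in 4D, against 17.1 and 29.2 in 4A. That inside ITGA9, an integrin subunit, had 2.54 and 4.85 in 4D, against 11.7 and 17.3 in 4A. The groups did not overlap at these 3 regions either. These regions too were chosen by shifts in the rank of these values, so the separation follows in part from the choice. SLC67A2, GMDS, GPR42, KLF13, STX1A and CCDC68 were nearest to the others, with shifts between −57.6 and −34.7 points.

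By the median, the shifted regions ranked in WT between the mutants in replicate 1 and closer to the higher mutant in replicate 2. Single regions varied. In replicate 1 WT lay between the mutants in 15 of 25 regions ranked higher in 4D and 19 of 31 ranked lower. In replicate 2 it did so in 20 of 32 and 32 of 43. Over all common regions that WT called, it was 1178 of 2957 in replicate 1 and 1397 of 3305 in replicate 2. Regions chosen for a wide gap between the mutants leave more room for WT between them. For regions ranked higher in 4D the median percentile rank was 71.2 in 4D, 26.6 in 4A and 47.0 in WT over the 25 regions that WT replicate 1 called, and 74.9 in 4D, 45.5 in 4A and 71.9 in WT in replicate 2. For regions ranked lower in 4D it was 22.6 in 4D, 70.4 in 4A and 45.3 in WT over 31 regions in replicate 1, and 48.7, 77.4 and 69.0 in replicate 2. The 4D and 4A values here were used to choose the regions and are given as a description.

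**Figure D3:**
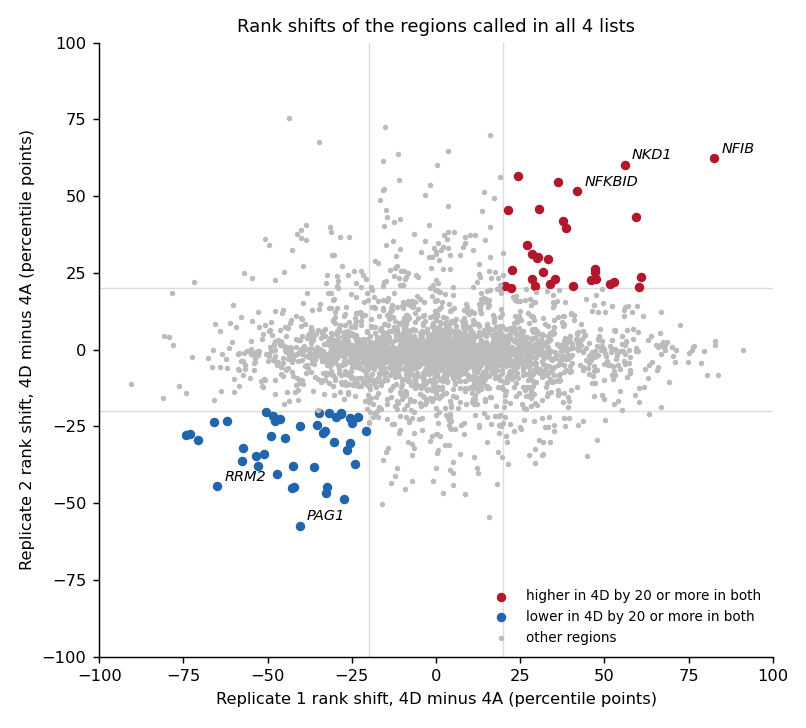
Shift in percentile rank, 4D minus 4A, in replicate 1 (horizontal axis) and replicate 2 (vertical axis) for the 3317 regions called in all 4 lists. The 32 regions at least 20 points higher in 4D in both numbers and the 43 at least 20 points lower are coloured and form the edge of a continuous cloud. Its spread is wider in replicate 1 (SD 25.02) than in replicate 2 (12.2).

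The strongest regions ranked near the top of all 4 lists, as choosing them by mean rank requires. First by mean rank came a region 3.17 kb from LSM10, a protein of histone messenger processing, with −log10 q of 145 and 450.4 in 4D, against 156 and 502 in 4A, and shifts of 0.06 and 0.00. The NRROS, MTMR4, RSPH1 and GRIP2 regions followed, with shifts between −0.39 and 0.18. LMO2, the bridge of the TAL1 complex, had 68.4 and 192 in 4D, against 104 and 237 in 4A. A second ZFPM1 region (chromosome 16, 88491171 to 88492120), common to all lists, had 58.9 and 212 in 4D, against 33.4 and 191 in 4A. At NFE2, a factor of platelet formation, the values were 40.0 and 91.1 in 4D, against 40.3 and 145 in 4A. At MYH10, a myosin that megakaryocytes silence as they mature, they were 60.9 and 159.9 in 4D, against 58.8 and 152 in 4A. CDK9, the kinase of the elongation factor P-TEFb, had 45.3 and 132 in 4D, against 31.1 and 163 in 4A. Shifts at LMO2, NFE2, MYH10 and CDK9 lay between −1.56 and 7.61 points. Summits of the common regions lay at a median of 39 bp from each other in replicate 1 and 27 bp in replicate 2, and 80.3 and 85.6% lay within 100 bp. Peaks there were 0.891 and 0.952 times as wide in 4D as in 4A, by the median.

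At the level of genes, 4590 of 19974 protein-coding genes (23%) had a region of both 4D lists within 10 kb of the gene, and 4571 (22.9%) had a region of both 4A lists. A gene was called with 4D only in 1087 cases (5.44%) and with 4A only in 1068 (5.35%). The gene lists below are short and were chosen with earlier results of these data known, so their counts are descriptions.

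Of the genes called in 1 line only, transcription factors of blood cells were in 4D and most cytokine signalling genes in 4A. Of 36 such factors, 19 were called in 4D and 14 in 4A, with 5 in 4D only and 0 in 4A only. The 5 were CBFB, the partner of RUNX1, ERG, an ETS factor of stem cells, HHEX, LDB1, which bridges GATA1 to distant enhancers, and SPI1, the factor of myeloid cells. Of 39 genes of cytokine signalling and the JAK-STAT pathway, 18 were called in 4D and 24 in 4A, with 1 (SOCS3, a feedback inhibitor) in 4D only and 7 in 4A only. The 7 were the receptors IL3RA and KIT, the kinases JAK1, JAK3 and PIM2, the feedback inhibitor SOCS1, and STAT4. Among called genes, 5 of 19 blood factors were in 4D only, beside 1087 of 4590 over all protein-coding genes. For cytokine genes 7 of 24 were in 4A only, beside 1068 of 4571. Both shares were near those of all genes. A lean to 4A was not particular to cytokine genes, as ribosomal protein genes had 3 in 4D only and 7 in 4A only. In the other direction, 0 of 14 blood factors were in 4A only and 1 of 18 cytokine genes in 4D only. Both contrasts came from the short replicate 1 lists. In the replicate 2 lists alone 32 and 33 blood factors were called in 4D and 4A, with 1 and 2 in 1 line only, and 34 and 34 cytokine genes, with 0 and 0.

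The values per library show the same. The best peak within 10 kb of LDB1 had −log10 q of 16.6 and 15.6 in 4D, against no call and 26.5 in 4A. At SPI1 it was 3.17 and 28.9 in 4D, against no call and 47.3 in 4A, and at ERG 1.70 and 51.9 in 4D, against no call and 71.8 in 4A. At these 3 genes 4A replicate 2 was the highest list. At CBFB it was 3.499 and 39.8 in 4D, against 3.516 and 47.4 in 4A, where the replicate 1 peak of 4A fell below the cut although its value was the higher. At KIT the best peak was not called in replicate 1 of 4D and had 26.1 in replicate 2, against 3.53 and 48.4 in 4A. At JAK1 it was 14.3 in replicate 2 of 4D alone, against 8.46 and 21.3 in 4A.

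Megakaryocytic and erythroid genes were called about equally in the lines. Of 40 megakaryocyte and platelet genes, 19 were called in 4D and 21 in 4A. GP9, a subunit of the von Willebrand factor receptor, and F2R, a thrombin receptor, were called in 4D only. DIAPH1, a formin, SELP, TUBB1, the tubulin of platelets, and VWF, the von Willebrand factor itself, were called in 4A only. GP9 had −log10 q of 11.0 and 2.95 in 4D, against 2.57, below the cut, and 14.03 in 4A. VWF had no call and 16.7 in 4D, against 5.55 and 27.0 in 4A. Of 42 erythroid genes, 12 were called in 4D and 11 in 4A, with ANK1, the ankyrin of red cells, and FOXO3 in 4D only and EPB42 in 4A only. ANK1 had 6.09 and 49.4 in 4D, against no call and 53.8 in 4A.

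Among 31 partners and targets of RUNX1, 19 were called in 4D and 18 in 4A, with CBFB and SPI1 in 4D only. CSF1R, the receptor of macrophage growth factor, was counted in 4A only. Both 4D lists held a peak near CSF1R, with best −log10 q of 8.38 and 7.95, but no region was called in both. The 4A values were 3.52 and 14.9. Of 38 cell cycle genes, 14 were called in 4D and 13 in 4A. CDC25C, CDK4, E2F2 and MCM2 were in 4D only, and CCNE2, CDKN1B and RBL2 in 4A only. Of 38 genes of elongation and chromatin, 16 were called in 4D and 14 in 4A. CCNT2 and HEXIM1, a cyclin and an inhibitor of P-TEFb, CREBBP and SUPT5H were in 4D only, and DNMT3A and ELL2 in 4A only. At CREBBP the best −log10 q was 1.49 and 4.12 in 4D, against 3.52, removed by the cut, and 10.04 in 4A. Each 4A value there was the higher of its number. Both 4D lists held a peak near DNMT3A, with best −log10 q of 2.63 and 19.5, but no region was called in both. The 4A values at DNMT3A were 14.7 and 19.99. Of 32 myeloid genes, 6 were called in 4D and 8 in 4A. Ribosomal protein genes were called in 6 of 46 cases in 4D and in 10 in 4A, with 3 in 4D only and 7 in 4A only. Of 36 genes typical of other tissues, 5 were called in 4D and 7 in 4A.

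**Figure D4:**
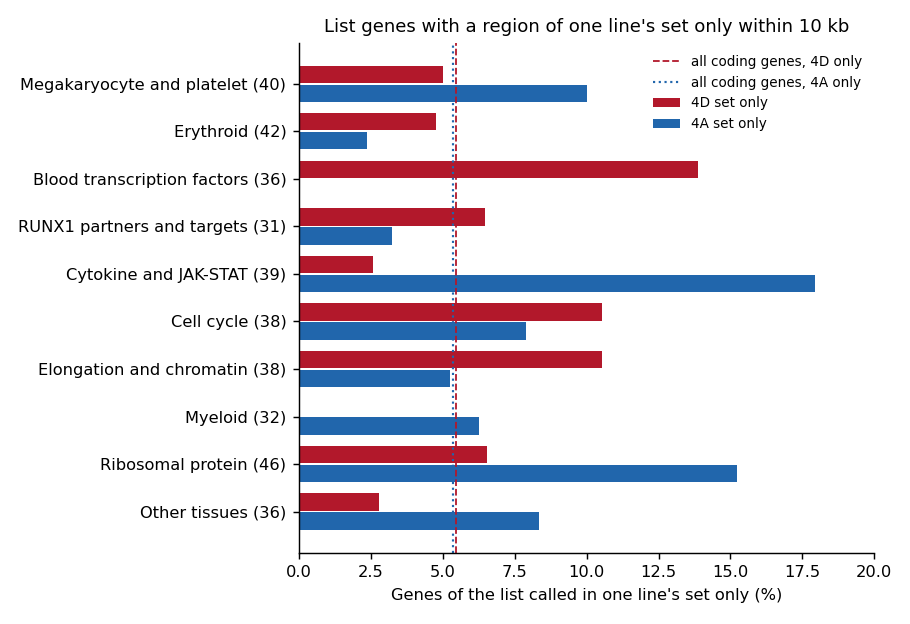
Percent of genes of each list (number of genes in brackets) with a region of the 4D set only (red) or the 4A set only (blue) within 10 kb. The lines mark all protein-coding genes (5.44% and 5.35%). Blood transcription factors had 5 genes in 4D only and 0 in 4A only, and cytokine genes 1 and 7. Among genes called in the line, 5 of 19 and 7 of 24 were in that line only. Over all protein-coding genes it was 1087 of 4590 in 4D and 1068 of 4571 in 4A.

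Median shifts at the shared regions of these lists were small except for the myeloid list, which held few regions. The median over regions of the mean shift was −0.01 points for all regions, 0.35 for megakaryocytic genes over 22 regions, 3.66 for erythroid genes over 10, 0.66 for blood transcription factors over 23 and 2.88 for cytokine genes over 22. For myeloid genes it was −13.8 over 7 regions, with −22.3 in replicate 1 and 0.40 in replicate 2. It was 1.31 with summit windows and 3.93 without replicate 1. Of the 7 regions, 2 were higher in 4D in both numbers, 2 lower in both and 3 opposite. The NFKBID region near TYROBP had shifts of 42.0 and 51.6, and that at CSF3R, a growth factor receptor, 2.61 and 0.40. At CD33, a lectin of myeloid cells, the region had −log10 q of 3.56 and 33.2 in 4D, against 11.9 and 30.9 in 4A. At CST7, a protease inhibitor, it had 3.85 and 44.9 in 4D, against 15.5 and 75.6 in 4A.

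The chromosomes were evenly filled in replicate 2 and not in replicate 1. In lists of equal length, the number of 4D peaks over 4A peaks per chromosome lay between 0.907 (chromosome 22) and 1.15 (chromosome 21) in replicate 2. In replicate 1 it lay between 0.588 on chromosome 14, with 150 peaks in 4D and 255 in 4A, and 1.67 on chromosome 13, with 110 and 66. On chromosome 10 it was 1.48, with 189 and 128. On chromosomes 10 and 14 the replicate 1 library that stood apart was 4A. Chromosome 14 held 2.81% of the full list in 4D replicate 1, 4.67% in 4A replicate 1 and 2.86% in WT replicate 1, and chromosome 10 held 3.54, 2.45 and 3.69%. On chromosomes 8 and 22 it was 4D, with 3.76 and 1.57% of the 4D list, 4.59 and 2.00% of the 4A list and 4.83 and 2.06% of the WT list. On chromosome 13 the shares were 2.06% in 4D, 1.28% in 4A and 1.69% in WT, with WT between the mutants. In each stretch of 20 Mb of chromosome 14 that held replicate 1 peaks, 4D had fewer than 4A, with 28 and 56 between 20 and 40 Mb and 39 and 73 between 60 and 80 Mb. On chromosome 10, 4D had more than 4A in each stretch but the first.

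Ranks followed in part. The median shift in replicate 1 was 6.80 points on chromosome 10, 12.9 on chromosome 13, −6.19 on chromosome 14 and −8.95 on chromosome 8, while in replicate 2 the medians of all chromosomes lay between −1.40 and 0.22. Chromosome 14 held 4 of the 141 regions found with 4D and not 4A and 11 of the 134 found with 4A and not 4D, among them those near CDKN3 and PCNX1. Whether the share of chromosome 14 in 4A replicate 1 bears on these regions was not tested. Chromosome 13 stayed in all counts and held 4 regions found with 4D and not 4A and 1 found with 4A and not 4D.

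**Figure D5:**
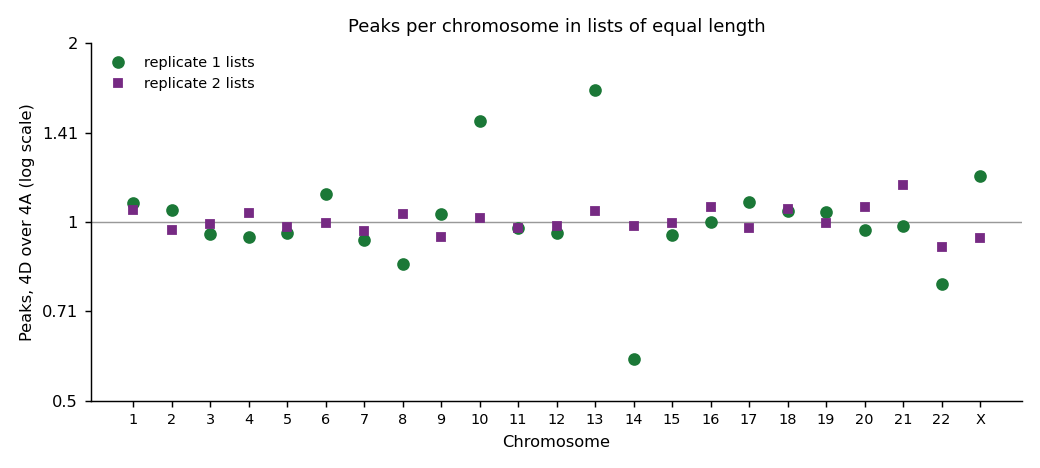
Number of 4D peaks over 4A peaks per chromosome in lists of equal length (log scale), for the replicate 1 lists (circles) and the replicate 2 lists (squares). Replicate 2 stays between 0.907 and 1.15, and replicate 1 reaches 0.588 on chromosome 14 and 1.67 on chromosome 13.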

How the data were processed

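CUT&RUN with an anti-HA antibody was done in HEL lines carrying RUNX1-4D, RUNX1-4A, WT RUNX1 or an empty vector, with 2 replicates each. The submitters' processing notes name MACS2 2.2.7.1, deepTools 3.5.1, Bowtie2 2.4.2, cutadapt 3.4 and Picard 2.25.6, and the build hg38. The filters on reads and the pooling of empty vector replicates are not stated in the sources used here. The authors called peaks per library. The deposited columns used are −log10 q, −log10 p and the fold enrichment, a linear ratio to background. The deposited score column was not used. The peak values are the authors'. They were used to rank and filter peaks within a list, and are set side by side between lists as a description, though their size also depends on the depth of each library. The lists reach down to a −log10 q near that of a q-value of 0.05.

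Peaks on chromosomes 1 to 22 and X were sorted by −log10 q (ties by −log10 p, fold enrichment and position), cut to equal length within each replicate number, merged at an overlap of 1 bp and ranked from 0 to 100 with tied peaks sharing a mean rank. WT lists were cut to the same lengths. At the cut 58 peaks of 4A replicate 1 and 53 of 4A replicate 2 were tied, of which 22 and 12 were kept. Genes, names and promoters came from RefSeq tables of GRCh38.p14, and coordinates are 1-based. Samples with the same number were taken as pairs. Over the 3317 common regions the deviations of same-numbered lists from the means of their lines had a correlation of 0.381. Regions named are the 10 with the highest lower rank in each direction, the 10 with the largest smaller shift, those within 10 kb of a listed gene, the 5 strongest and up to 4 per gene list. Some named regions are not reported here. The members and the lists were chosen with earlier results of these data known. Alternatives were full lists, all lists at one length, a −log10 q of at least 5, summit windows, ranking by fold enrichment, other shift thresholds, leaving out a replicate and leaving out chromosomes 10 and 14. Steps were tested on simulated lists. Python 3.11.15, pandas 2.3.3, numpy 2.4.6, scipy 1.17.1 and matplotlib 3.10.9 were used.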

Additional observations from a re-analysis of the deposited data

Results flagged for a closer look

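Peaks outside chromosomes 1 to 22 and X entered no comparison and are given as values, since they carry signal outside the regions compared. There were 21 and 65 such peaks in 4D replicates 1 and 2 and 16 and 51 in 4A replicates 1 and 2. Of these, 7 and 15 in 4D and 5 and 1 in 4A lay on the mitochondrial genome, with a highest −log10 q of 1179 and 245 in 4D and 1366 and 15.2 in 4A.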

How the results depend on the processing

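Depth is unknown, so how far it limits the calls was not tested. Counts are given in the order found with 4D and not 4A, found with 4A and not 4D, higher in 4D, lower in 4D, against 141, 134, 32 and 43. With full lists they were 106, 223, 20 and 74, since the longer 4A lists then kept their weak peaks, and 106, 134, 8 and 43 of these were among the regions reported. Without the replicate block, that is with all 4 lists at one length and no pairing by number, they were 211, 209, 110 and 151, of which 28, 10, 2 and 0 were among them. With a −log10 q of at least 5 they were 90, 79, 35 and 23, of which 48, 42, 9 and 11 were among them. Shifts of at least 10 points gave 137 and 149, and of at least 30 points 9 and 15. Leaving out replicate number 2 or 1 moved all 4 counts by more than 1.5 times, since calls then rest on 1 list per line, with ranges of 1891 to 5346, 1950 to 5506, 683 to 2063 and 619 to 2181, and 3393 to 15421 regions in all lists left. Summit windows, ranking by fold enrichment and leaving out chromosomes 10 and 14 kept each count within 1.5 times. Of the regions reported, 132, 127, 28 and 42 stayed with summit windows, and 136, 116, 20 and 36 with ranking by fold enrichment. Without chromosomes 10 and 14, 132, 121, 31 and 41 stayed. In all 6 settings other than leaving out a replicate or moving the shift threshold, the NRG2, PLXNA1, IQSEC3, MVB12B, FLI1 and ZFPM1 regions stayed with 4D and not 4A, and the CAST, IFNAR2, ZFPM2, KIAA1549 and GRB2 regions among others with 4A and not 4D. No named region of a rank shift stayed in all 6. All 12 higher and all 11 lower in 4D were lost with all lists at one length. With a −log10 q of at least 5, 10 of the 12 and 8 of the 11 were lost, and with full lists 5 and 0. Of 99 medians, of the gene lists and of all regions, 32 moved. A list median counted as moved when it changed by at least the SD of its replicate 1 and replicate 2 medians. For all regions the limit was 1 point.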

Other observations

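Calls of the lines lay side by side inside PLCG1, a phospholipase downstream of tyrosine kinase receptors, chosen after its values were seen. The region from 41141286 to 41141721 on chromosome 20 had −log10 q of 2.62 and 5.95 in 4D and no call in 4A. The region from 41143043 to 41143359, which lay 1.32 kb away, had no call in 4D and 4.31 and 13.2 in 4A.

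Near BACH1, a repressor that heme removes from DNA, 2 regions were found with 4A and not 4D. The region inside the gene had −log10 q of 4.96 and 16.3 in 4A, and that 53.3 kb away had 7.58 and 7.54 in 4A. The region near ETS2, an ETS family factor, had 7.67 and 10.0 in 4A, and a 4D peak lay 0.281 kb away.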
